A study of Mus musculus with 9 samples.

Results

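The genes described here are the constitutive proteasome subunits of the mouse, measured as RNA in 9 libraries of sorted bone marrow cells. They were taken by name: every protein-coding gene in the count tables whose symbol is Psma, Psmb, Psmc or Psmd followed by a number, except Psmb8, Psmb9 and Psmb10, which belong to the immunoproteasome. This gave 36 of 56262 genes: 8 Psma, 8 Psmb, 6 Psmc and 14 Psmd genes. The proteasome is the cell's main machine for degrading proteins tagged with ubiquitin. Its barrel-shaped core is built from outer rings of alpha subunits (Psma), which gate the entrance, around inner rings of beta subunits (Psmb), a few of which cut the protein chain. A regulatory cap sits on the end of the barrel, with a ring of ATPases (Psmc) that unfold the substrate and non-ATPase subunits (Psmd) that bind ubiquitin chains and remove them. The subunits assemble in fixed proportions, and blood stem cells are known for a low rate of protein synthesis and for their sensitivity to disturbed protein turnover.

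The cells were labelled long-term hematopoietic stem cells (LT-HSC), the rare marrow cells that sustain blood formation, from C57BL/6 wild-type mice, with 3 libraries in each of 3 groups. Control mice were untreated. Mice of the group 5-FU+Saline received 250 mg/kg of 5-fluorouracil, which is toxic to cells in division, and then saline, which the series text calls PBS; its schedule is not given in the labels. Mice of the group 5-FU+FMT received the same 5-fluorouracil and then FMT, an abbreviation the labels do not spell out, into a vein at 5 mg/kg on days 1, 4 and 7. In both 5-FU groups cells were taken on day 8, and no day is given for Control. The labels do not say that the 3 libraries of a group came from separate mice, so the p-values measure the spread between libraries, which may be technical. Totals ranged from 11098031 to 19270976 counts per library.

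The label gives the sort as negative for lineage markers and for a marker written C48-, and positive for Sca1, c-Kit and CD150. Kit (the gene of c-Kit) stood at 754, 410.5 and 537 CPM on average in Control, 5-FU+Saline and 5-FU+FMT. CPM are counts relative to the library total after that total was scaled by its TMM normalization factor. Slamf1 (the gene of CD150) stood at 8.35, 34.5 and 24.4 CPM, below Cd48, which stood at 30.7, 53.7 and 46.7 CPM. RNA of other cells was present and differed between the groups: the summed level of 9 B lineage genes was 54.6 to 55.1 CPM in Control, 919 to 938 CPM in 5-FU+Saline and 425 to 468 CPM in 5-FU+FMT, and the other marker lists follow after the results. Xist, which is transcribed from the inactive X chromosome of females, stood at 1.34, 0.734 and 0.533 CPM in the Control libraries, 1183, 1223 and 1198 CPM in 5-FU+Saline and 693, 695 and 659.5 CPM in 5-FU+FMT. The Y-linked Ddx3y stood at 172, 164 and 169 CPM in Control, 37.8, 37.1 and 41.9 CPM in 5-FU+Saline and 99.7, 98 and 102 CPM in 5-FU+FMT. Each library of both 5-FU groups thus held Xist and Y-linked RNA together, at similar levels within its group. The labels do not say whether a library is a single mouse or a pool, and this was not tested. The labels give no sex, and sex-linked RNA, other cells' RNA and treatment cannot be told apart in these groups. In bulk RNA, a lower share of a cell type and less RNA per cell cannot be told apart either.

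After 5-fluorouracil with saline, the RNA of almost all tested members was higher than in untreated mice. The 36 genes together made up 2823 to 2887 CPM in the Control libraries and 4263 to 4356 CPM in the 5-FU+Saline libraries, or 0.277% to 0.283% and 0.429% to 0.436% of the counts. Of the 35 genes with enough counts to be tested, 34 rose and 1, the assembly factor Psmd9, was not called. The call is an adjusted p under 0.05 in edgeR's quasi-likelihood test over all 16595 genes tested. The background was broad, since 32.8% of all genes tested were called higher and 32.7% lower in this comparison. The median log2 fold change of the members was 0.59 (1.51-fold), beside -0.02 for all genes tested. No member was called lower, at an unadjusted p under 0.05 there were also 0, and DESeq2 and limma-voom called 0.

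With FMT after 5-fluorouracil, the same RNAs stood between the other groups. The members summed to 3615 to 3718 CPM in the 5-FU+FMT libraries, or 0.365% to 0.375% of the counts, below each 5-FU+Saline library and above each Control library. Of the way from the Control mean to the 5-FU+Saline mean in CPM, the 34 members called between these groups stood at a median of 55.1% with FMT, and all 5443 genes called higher there stood at 55.3%. Against 5-FU+Saline, 30 of 35 members fell and 0 rose, where 19.2% of all genes tested were called lower and 17.7% higher. The median log2 fold change was -0.23 (1.17-fold lower), beside 0.01 for all genes tested. The 5 members not called were Psma8, Psmc6, Psmd5, Psmd9 and Psmd10. At an unadjusted p under 0.05 there were also 0 members higher in edgeR, and DESeq2 and limma-voom called 0 higher.

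Against Control, 33 of 35 members were higher in 5-FU+FMT and 0 lower, with Psmd9 and Psmd10 not called, where 25% of all genes tested were called higher and 21.6% lower (4151 and 3584 genes, against 3315 and 4559 under upper-quartile scaling). The median log2 fold change was 0.34 (1.26-fold), beside -0.01 for all genes tested. At an unadjusted p under 0.05 there were 0 members lower in edgeR, and DESeq2 and limma-voom called 0 lower. The 3 comparisons share libraries pairwise, so their values stand side by side and are not independent of each other.

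**Figure D1:**
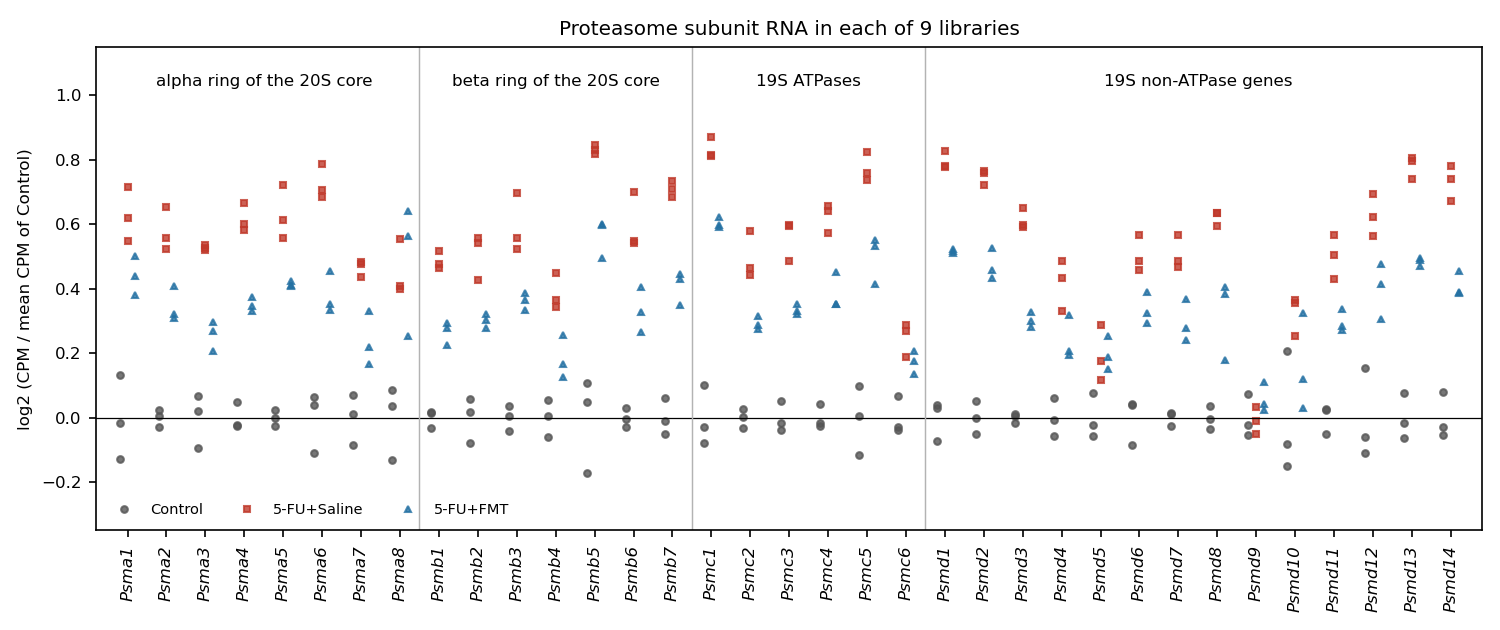
Level of each of the 35 tested proteasome genes in each library, as log2 of its CPM over the mean CPM of the Control group, arranged by role; circles are Control, squares 5-FU+Saline and triangles 5-FU+FMT. For most genes the squares lie highest and the triangles between squares and circles, while for Psmd9 the symbols of the 3 groups mix.

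Promoter sequence is shown for the 5 members whose window held TGACNNNGC, the core letters of the antioxidant response element, a site known to be bound by NFE2L1 and its relatives, which drive proteasome genes when proteasome activity falls. They are shown because they include the member with the next to largest rise after 5-fluorouracil with saline (Psmb5), the structural subunit with the smallest (Psmc6), and the member that was not called (Psmd9). The windows run from 250 bases before to 50 bases after a gene's start (RefSeq, GRCm38.p6), and 29 of the 36 members had one; Psma8, Psmb1, Psmb2, Psmb7, Psmc3, Psmd3 and Psmd7 had none. Only bases before the start and outside annotated exons are printed, 5′ to 3′ on the gene's strand, with the matching letters in capitals (GCNNNGTCA where the match lies on the opposite strand).
Psmb5, chr14:54618023-54618067, minus strand: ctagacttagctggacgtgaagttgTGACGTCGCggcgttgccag
Psmb6, chr11:70525323-70525356, plus strand: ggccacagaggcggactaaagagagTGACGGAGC
Psmc6, chr14:45329574-45329630, plus strand: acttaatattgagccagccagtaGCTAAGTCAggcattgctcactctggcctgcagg
Psmd12, chr11:107479278-107479314, plus strand: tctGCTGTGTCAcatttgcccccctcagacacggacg
Psmd9, chr5:123228134-123228189, plus strand: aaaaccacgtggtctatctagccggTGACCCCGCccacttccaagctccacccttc
The matches began 47 bases before the start in Psmb5, 9 in Psmb6, 227 in Psmc6, 247 in Psmd12 and 31 in Psmd9. Matches on either strand were found in 5 of 29 members (17.2%) and in 14.8% of the 17492 protein-coding genes with a window. CCAAT, the letters bound by the factor NF-Y, were found in 12 of 29 members (41.4%) and in 42.3% of these genes. CCGGAAG, letters of sites bound by ETS family factors, were found in 10 of 29 members (34.5%) and in 12.9% of these genes. All 3 motifs were searched on both strands, none contains another, and a match describes letters, not binding.

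The beta ring holds the cutting subunits. Psmb5, the subunit with chymotrypsin-like activity and the target of the drug bortezomib, lies at chr14:54614119-54618022 in mm10. It stood at 49.1, 42.2 and 51.1 CPM in the Control libraries, 84.5, 83.6 and 85.3 CPM in 5-FU+Saline and 72, 71.8 and 66.9 CPM in 5-FU+FMT. The 3 groups did not overlap, with 5-FU+Saline highest and Control lowest. The rise after 5-fluorouracil with saline was 0.82 ± 0.057 on the log2 scale (SE; 1.76-fold, adjusted p = 6.94e-22), the largest in the beta ring. FMT libraries were lower than saline libraries by a log2 fold change of -0.27 ± 0.054 (adjusted p = 3.75e-05).

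Psmb6, with caspase-like activity (chr11:70525367-70527858), stood at 86.2, 82.7 and 84.2 CPM in Control, 137, 123 and 123 CPM in 5-FU+Saline and 112, 101 and 106 CPM in 5-FU+FMT. Again no library of a group reached into another group. The log2 fold change was 0.60 ± 0.046 in 5-FU+Saline against Control (adjusted p = 1.07e-19) and -0.26 ± 0.044 in 5-FU+FMT against 5-FU+Saline (adjusted p = 1.02e-06). Psmb7, with trypsin-like activity (chr2:38588036-38644087), stood at 47.6, 51.4 and 49 CPM in Control, 82.2, 80.7 and 79.4 CPM in 5-FU+Saline and 67.2, 62.9 and 66.5 CPM in 5-FU+FMT. Its groups were separate in the same order, with log2 fold changes of 0.71 ± 0.055 (adjusted p = 1.62e-19) and -0.30 ± 0.053 (adjusted p = 2.61e-06). For 2 of these genes part of the exon bases lies under another gene: 12.1% for Psmb5 (the microRNA gene Mir686, same strand) and 11.8% for Psmb7 (Nek6, opposite strand), and no strand option was used in counting. The 4 named pseudogenes of Psmb genes in the tables held 8 counts in all 9 libraries together.

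The non-catalytic beta subunits, which complete the ring, also rose after 5-fluorouracil with saline and fell with FMT. Psmb4 stood at 150.4, 139 and 145 CPM in Control, 198, 187 and 184 CPM in 5-FU+Saline and 173, 163 and 158 CPM in 5-FU+FMT, with no overlap between groups. It had the smallest rise of the tested genes in the ring, 0.38 ± 0.038 on the log2 scale (adjusted p = 9.1e-15). Psmb3 had log2 fold changes of 0.59 and -0.23, Psmb2 of 0.51 and -0.21, and Psmb1 of 0.49 and -0.22 in the same comparisons. Psmb11, the subunit of the thymic cortex, had 3 counts in each group over its libraries, at most 0.211 CPM in any, and was not tested. All 7 tested beta genes were called higher in 5-FU+Saline against Control, lower in 5-FU+FMT against 5-FU+Saline and higher in 5-FU+FMT against Control, with ring sums of 554 to 582 CPM in Control, 809.8 to 858 CPM in 5-FU+Saline and 693 to 726 CPM in 5-FU+FMT.

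The alpha ring, which forms the gate of the barrel, moved with the beta ring. Its summed level was 632 to 662 CPM in Control, 940.5 to 988 CPM in 5-FU+Saline and 799 to 840.1 CPM in 5-FU+FMT, against medians over its genes of 0.60 on the log2 scale for 5-FU+Saline against Control and -0.23 for 5-FU+FMT against 5-FU+Saline. All 8 genes rose in the former comparison, and 7 of 8 fell in the latter. Psma6 (chr12:55384222-55418454) stood at 80.9, 82.2 and 73 CPM in Control, 136, 129 and 127 CPM in 5-FU+Saline and 108, 99.2 and 100.5 CPM in 5-FU+FMT, with no overlap between groups. It had the largest rise of the ring, 0.73 ± 0.046 (log2, 1.66-fold, adjusted p = 4.97e-24), and of all members the largest fall with FMT, -0.34 ± 0.045 (1.27-fold lower, adjusted p = 1e-09).

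Psma7 averaged 136 ± 7.44 CPM (SD, n = 3) in Control, 188 ± 3.4 CPM with saline and 161 ± 9.58 CPM with FMT after 5-fluorouracil, with log2 fold changes of 0.46 and -0.22 for the saline and FMT steps. Psma5 (0.63 and -0.22), Psma1 (0.62 and -0.19), Psma4 (0.62 and -0.27), Psma2 (0.57 and -0.23) and Psma3 (0.53 and -0.27) lay close to each other on this scale. Psma8, the alpha subunit of germ cells in the testis, stood at 5.22, 5.87 and 6.08 CPM in Control, 7.6, 8.4 and 7.54 CPM in 5-FU+Saline and 6.82, 8.92 and 8.45 CPM in 5-FU+FMT. Its 5-FU libraries were above every Control library, but 5-FU+Saline and 5-FU+FMT overlapped: its log2 fold change between them was 0.04 ± 0.15 (adjusted p = 0.88). Against Control, Psma8 was called in 5-FU+Saline (0.45 ± 0.16, adjusted p = 0.011) and in 5-FU+FMT (0.49 ± 0.16, adjusted p = 0.00979). Without 5-FU+FMT replicate 2 the latter log2 fold change was 0.41 and missed the threshold (adjusted p = 0.0643).

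The 6 ATPases of the cap, which pull the substrate into the core, all rose after 5-fluorouracil with saline, and 5 of 6 fell with FMT. Psmc1 (chr12:100110154-100123405), whose tail helps open the gate of the alpha ring, stood at 99.6, 113 and 103 CPM in Control, 185, 185 and 192 CPM in 5-FU+Saline and 162, 159 and 159 CPM in 5-FU+FMT. Every 5-FU+Saline library was above every 5-FU+FMT library, and both above every Control library. Its rise of 0.84 ± 0.039 on the log2 scale (1.79-fold, adjusted p = 1.4e-31) was the largest of all 35 members, and 5-FU+FMT was still 0.61 ± 0.04 above Control (adjusted p = 1.48e-22), also the largest. Psmc5 had the next largest rise of the ATPases, 0.77 ± 0.048 (adjusted p = 3.25e-24), from 69.7 ± 5.15 to 119 ± 3.79 CPM, and it averaged 98.6 ± 5.05 CPM with FMT (SD, n = 3).

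Psmc4 (0.62), Psmc3 (0.56) and Psmc2 (0.50) rose by similar log2 amounts in 5-FU+Saline against Control and fell by 0.24, 0.23 and 0.21 with FMT. Psmc6 moved least. It stood at 92.5, 86.5 and 85.9 CPM in Control, 101, 108 and 106 CPM in 5-FU+Saline and 97, 102 and 99.8 CPM in 5-FU+FMT. The Control libraries lay below all others, and the ranges of 5-FU+Saline and 5-FU+FMT overlapped. The log2 fold change was 0.25 ± 0.046 in 5-FU+Saline against Control (adjusted p = 1.76e-06) and -0.08 ± 0.045 in 5-FU+FMT against 5-FU+Saline (adjusted p = 0.187).

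**Figure D2:**
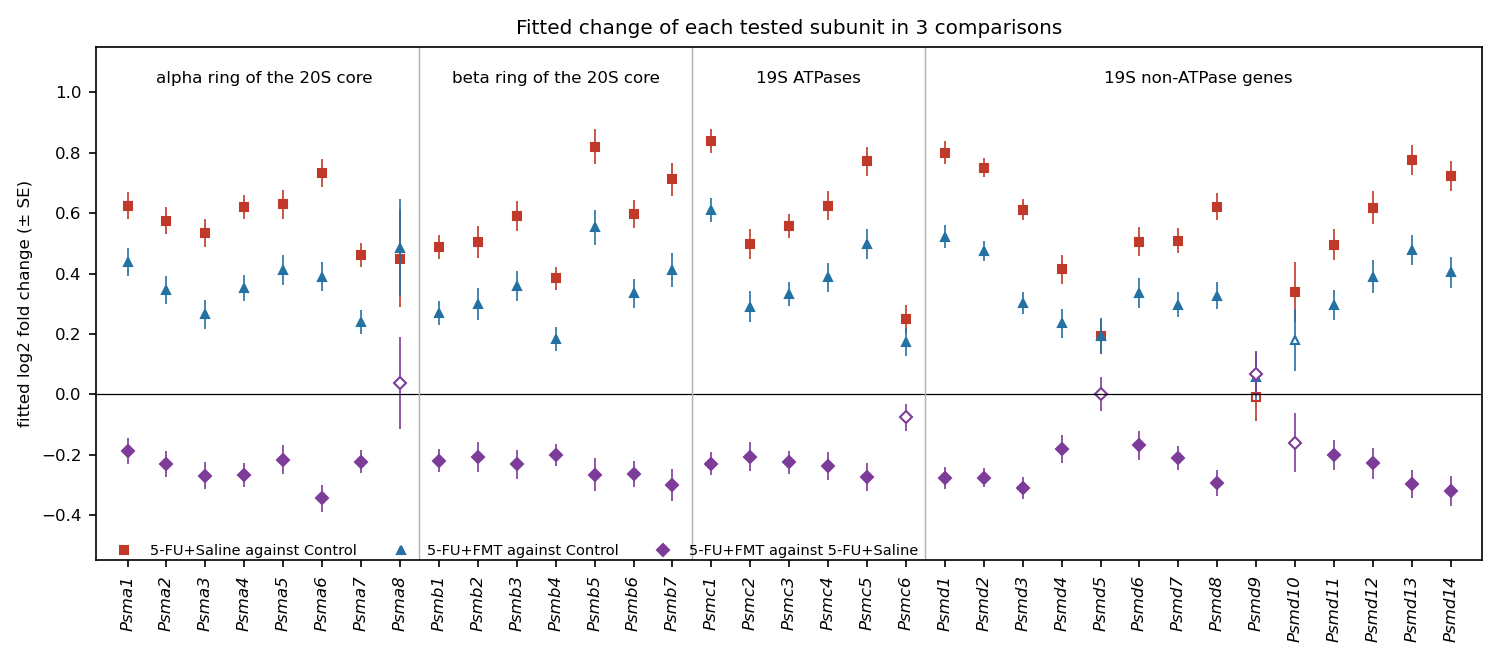
Fitted log2 fold change with its standard error for each of the 35 tested proteasome genes, by role: squares 5-FU+Saline against Control, triangles 5-FU+FMT against Control, diamonds 5-FU+FMT against 5-FU+Saline. Filled symbols are called at an adjusted p under 0.05 and open ones are not; Psmc1 is highest at 0.84, and Psmd9 is open in all 3 comparisons.

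Of the 14 non-ATPase genes, 13 rose after 5-fluorouracil with saline and 11 fell with FMT. Psmd2 (chr16:20651652-20663414), a large scaffold and docking site for proteins that deliver ubiquitinated substrates, stood at 171, 183 and 177 CPM in Control, 301, 292 and 299.6 CPM in 5-FU+Saline and 255, 239 and 243 CPM in 5-FU+FMT. The groups were well separated, with log2 fold changes of 0.75 ± 0.033 (adjusted p = 1.69e-33) and -0.28 ± 0.032 (adjusted p = 1.28e-11) for the saline and FMT steps. Psmd1, the other large scaffold (chr1:86064387-86139151), stood at 111, 109.9 and 102 CPM in Control, 191, 184 and 185 CPM in 5-FU+Saline and 154, 153 and 155 CPM in 5-FU+FMT. Its 5-FU+FMT libraries were nearly equal to each other and lay between the other groups, with log2 fold changes of 0.80 ± 0.038 (adjusted p = 6.07e-31) and -0.28 ± 0.037 (adjusted p = 1.53e-09). Psmd4, a receptor for ubiquitin chains, rose less, by 0.41 ± 0.048 (adjusted p = 3.66e-12), and fell by 0.18 with FMT (adjusted p = 0.0012).

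Psmd14, the enzyme that cuts ubiquitin chains off the substrate (chr2:61711694-61800376), stood at 59.2, 58.1 and 63.7 CPM in Control, 104, 101 and 96.2 CPM in 5-FU+Saline and 78.9, 79.1 and 82.8 CPM in 5-FU+FMT. No groups overlapped, and its fall with FMT, -0.32 ± 0.049 on the log2 scale (adjusted p = 8.49e-08), was exceeded only by that of Psma6 among the members. Its structural partner Psmd7 rose by 0.51 ± 0.041 (adjusted p = 1.28e-18) and fell by 0.21 (adjusted p = 1.01e-05). Of the lid subunits that hold this enzyme in place, Psmd13 rose most, from 62.6 ± 3.09 to 108 ± 2.68 CPM, and averaged 87.7 ± 0.749 CPM with FMT (SD, n = 3). Psmd3 fell by 0.31 with FMT after a rise of 0.61, and Psmd8 by 0.29 after a rise of 0.62. The remaining lid genes Psmd12 (0.62 and -0.23), Psmd6 (0.51 and -0.17) and Psmd11 (0.50 and -0.20) were called in both comparisons, in the same directions. Of Psmd13's exon bases, 10.1% lie under Sirt3 on the opposite strand.

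The 3 Psmd genes that are not built into the finished proteasome were those with the smallest changes of this class. Psmd5, Psmd9 and Psmd10 encode chaperones that hold the ATPases during assembly of the cap. Psmd9 stood at 32.7, 29.9 and 30.6 CPM in Control, 30.8, 31.8 and 30 CPM in 5-FU+Saline and 32, 33.5 and 31.6 CPM in 5-FU+FMT. The groups overlapped throughout, and the log2 fold changes were -0.01 ± 0.077 (adjusted p = 0.915), 0.07 ± 0.076 (adjusted p = 0.512) and, for 5-FU+FMT against Control, 0.06 ± 0.077 (adjusted p = 0.563).

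Psmd5 stood at 54.8, 53.5 and 58.6 CPM in Control, 62.9, 60.4 and 67.9 CPM in 5-FU+Saline and 66.3, 63.4 and 61.8 CPM in 5-FU+FMT. Both 5-FU groups lay above Control and overlapped each other. Psmd5 was called against Control in 5-FU+Saline (0.19 ± 0.058, adjusted p = 0.0027) and in 5-FU+FMT (0.19 ± 0.059, adjusted p = 0.00463), calls that upper-quartile scaling ended (adjusted p = 0.0718 and 0.0652), and it did not separate the 5-FU groups (adjusted p = 0.995). Psmd10, known as gankyrin and X-linked, stood at 15.6, 20 and 16.4 CPM in Control, 20.6, 22.1 and 22.3 CPM in 5-FU+Saline and 21.7, 18.8 and 17.7 CPM in 5-FU+FMT. Its 5-FU+Saline libraries lay above Control by a narrow gap (0.34 ± 0.1, adjusted p = 0.00228), and its 5-FU+FMT libraries overlapped both groups. Without Control replicate 2, the highest Control library, Psmd10 was called in 5-FU+FMT against Control (0.28, adjusted p = 0.0342).

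Grouped this way, after their values were seen, the 31 structural subunits (all members but these 3, Psma8 and Psmb11) were called higher in 31 of 31 cases in 5-FU+Saline against Control, lower in 30 of 31 in 5-FU+FMT against 5-FU+Saline, and higher in 31 of 31 in 5-FU+FMT against Control. Their summed level was 2714 to 2778 CPM in Control, 4140.0 to 4234 CPM in 5-FU+Saline and 3491 to 3591 CPM in 5-FU+FMT. The 3 assembly factors summed to 103 to 106 CPM in Control, 114 to 120.2 CPM in 5-FU+Saline and 111 to 119.9 CPM in 5-FU+FMT. Of them 2 were called higher in the comparison of saline with Control, 0 between the 5-FU groups and 1 higher in 5-FU+FMT against Control. At an unadjusted p under 0.05, in DESeq2 and in limma-voom, the count between the 5-FU groups was also 0. Psmd10, at lower counts, had a log2 fold change of -0.16 ± 0.098 between the 5-FU groups and was not called (edgeR, adjusted p = 0.205). The called structural subunit Psmd6 had a similar change with a smaller error, -0.17 ± 0.047. In 5-FU+Saline against Control the rise of Psmd10 (0.34) was larger than that of the structural subunit Psmc6 (0.25). The counts called therefore also depend on precision. The difference between structural subunits and assembly factors was not tested.

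Levels per gene were compared as CPM per kb of annotated exon. In Control the highest was Psmb4 at 74.3 CPM per kb, followed by Psma6 at 63.8 and Psmc1 at 54.5. In 5-FU+Saline Psma6 was highest at 106, ahead of Psmb4 at 97.1 and Psmc1 at 97, and in 5-FU+FMT Psmb4 at 84.4 lay beside Psma6 at 83.1. Low in all groups were Psma8 (2.29, 3.15 and 3.23 CPM per kb in Control, with saline and with FMT), Psmd9 (4.28, 4.26 and 4.46) and Psmd5 (7.7, 8.82 and 8.83). Exon length counts every annotated transcript of a gene, so long unused exons lower this value.

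**Figure D3:**
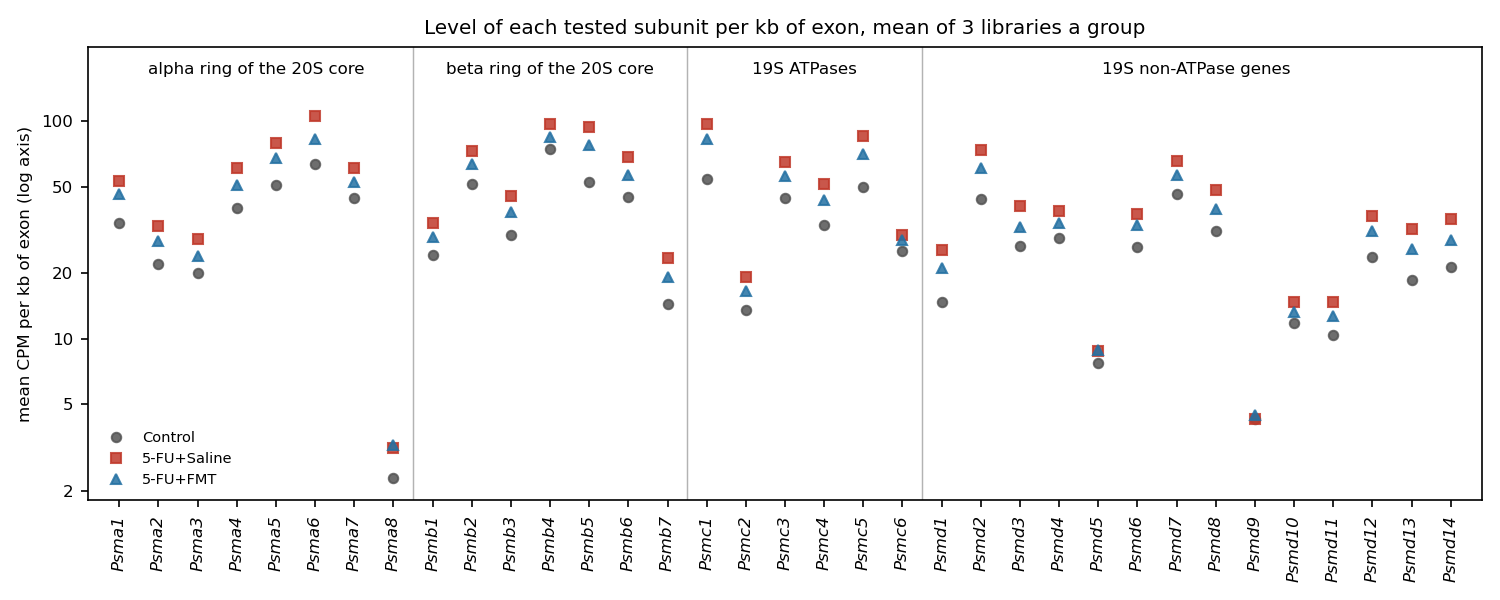
Mean level of each tested proteasome gene over the 3 libraries of a group, in CPM per kb of exon on a log axis; circles are Control, squares 5-FU+Saline and triangles 5-FU+FMT. Most genes lie between 10 and 110 CPM per kb, with Psma8, Psmd9 and Psmd5 below.

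In cells with interferon signalling and in many immune cells, the cutting subunits are replaced by Psmb8, Psmb9 and Psmb10, which take the places of Psmb5, Psmb6 and Psmb7. All 3 rose in 5-FU+Saline against Control, with smaller fitted log2 fold changes, 0.26 ± 0.039, 0.27 ± 0.047 and 0.33 ± 0.05, than those of the subunits they replace, 0.82, 0.60 and 0.71. The ratio of Psmb8 to Psmb5, per kb of exon, was 0.757, 0.879 and 0.703 in the Control libraries, 0.55, 0.502 and 0.51 in those of 5-FU+Saline, and 0.581, 0.576 and 0.575 with FMT. The groups did not overlap. Psmb9 to Psmb6 was 0.524, 0.518 and 0.574 in Control, 0.418, 0.45 and 0.423 with saline, and 0.458, 0.477 and 0.472 with FMT, again without overlap. Psmb10 to Psmb7 was 3.07, 2.74 and 3.02 in Control, 2.22, 2.3 and 2.28 with saline, and 2.27, 2.47 and 2.59 with FMT, where the 5-FU groups overlapped. The level of a ratio depends on the annotated exon lengths, such as 3.381 kb for Psmb8 and 0.899 kb for Psmb5. It therefore does not rank the subunits of a pair, and only groups are compared within a pair.

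In a two-sided exact permutation test with 3 libraries a group, p was 0.1 for 8 of the 9 comparisons of these ratios, the smallest this design can give, and therefore none could fall under 0.05. For Psmb10 to Psmb7 in 5-FU+FMT against 5-FU+Saline the exact p was 0.3. Benjamini-Hochberg adjustment over the 9 gave 0.113 and 0.3. On the log2 scale the ratio differed between 5-FU+Saline and Control by -0.58 for Psmb8 to Psmb5, -0.32 for Psmb9 to Psmb6 and -0.37 for Psmb10 to Psmb7.

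**Figure D4:**
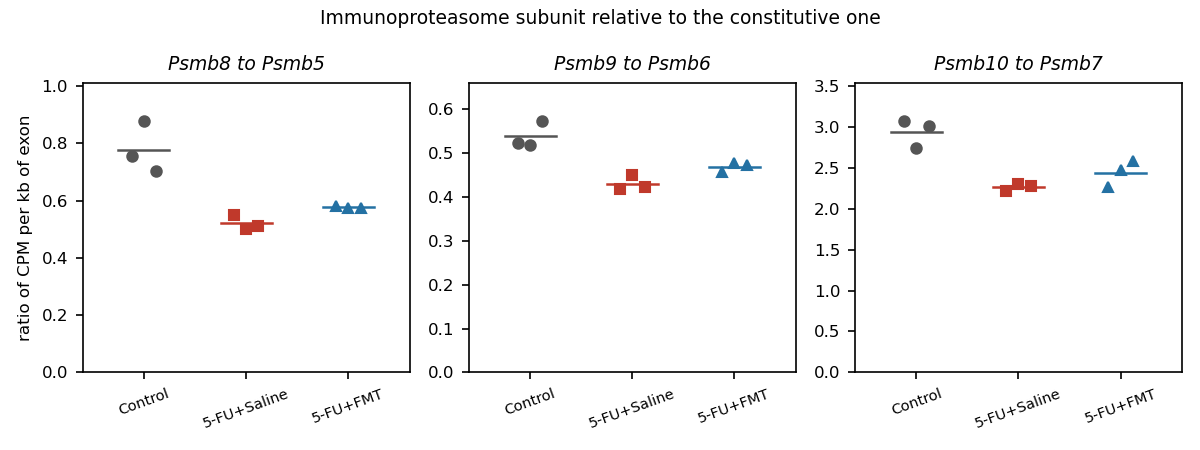
Ratio of each immunoproteasome subunit to the constitutive subunit it replaces, in CPM per kb of exon, for each library (symbols) with the mean on the log scale as a line. The Control libraries lie highest in each panel, from 0.703 to 0.879 for Psmb8 to Psmb5, and 5-FU+FMT overlaps 5-FU+Saline only for Psmb10 to Psmb7.

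Partners of the cap moved with it. Of 4 such genes all rose after 5-fluorouracil with saline and all fell with FMT, among them Usp14, a deubiquitinase that trims ubiquitin chains on the proteasome (0.67 and -0.14 on the log2 scale), and Sem1, a small lid protein (0.67 and -0.27). Beside these and the next lists, 32.8% of all genes tested were called higher and 32.7% lower in 5-FU+Saline against Control. In 5-FU+FMT against 5-FU+Saline, 17.7% were called higher and 19.2% lower. Of 5 genes of the immunoproteasome and its activator PA28, 5 rose and 4 fell, of which Psme2 rose most (0.56 ± 0.055, adjusted p = 8.66e-15). The falls of Psmb8 and Psmb9 with FMT lost their call without 5-FU+Saline replicate 1 (adjusted p = 0.154 and 0.102), and each also without a 5-FU+FMT library (adjusted p = 0.139 for Psmb8 without replicate 3 and 0.0699 for Psmb9 without replicate 2). Of 4 genes of other caps and inhibitors of the core, 3 rose, of which Psme4 did so by the least (0.11 ± 0.048, adjusted p = 0.0427) and lost its call under upper-quartile scaling (adjusted p = 0.582), under a stricter filter of 10 CPM in 3 libraries (0.297) and without 5-FU+Saline replicate 1 or 3 (0.0574 and 0.139) or Control replicate 2 or 3 (0.103 and 0.0916). Psme3, the nuclear activator, stood at 158, 161 and 149.8 CPM in Control, 234, 248 and 237 CPM in 5-FU+Saline and 187, 193 and 202 CPM in 5-FU+FMT without overlap, whereas Psmf1, an inhibitor of the core, was not called (-0.01 ± 0.066, adjusted p = 0.879).

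Dedicated assembly chaperones of the core rose in 5 of 5 tested genes after 5-fluorouracil with saline and fell in 2 of 5 with FMT. Of all genes tested, 32.8% were called higher in the former comparison and 19.2% lower in the latter. Psmg1, which helps close the alpha ring, stood at 27.7, 25.5 and 27.8 CPM in Control, 49.5, 41.8 and 45.9 CPM in 5-FU+Saline and 41.4, 38.9 and 38.1 CPM in 5-FU+FMT, with the saline libraries all highest. Its log2 fold change was 0.76 ± 0.074 (adjusted p = 7.47e-15), and that of Pomp, which guides the beta subunits, 0.41 ± 0.047 (adjusted p = 2.33e-12). The fitted change with FMT was -0.21 for Psmg1 (adjusted p = 0.0125) and -0.28 for Pomp (adjusted p = 3.95e-07). Leaving out 5-FU+Saline replicate 1 or 5-FU+FMT replicate 3 ended the call of Psmg1 with FMT (adjusted p = 0.127 and 0.0674). The rise of Psmg4 (0.24 ± 0.091, adjusted p = 0.0177) lost its call in several fits, with an adjusted p of 0.112 under upper-quartile scaling and of 0.0704 without 5-FU+Saline replicate 1.

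Genes that act before the proteasome, charging ubiquitin or carrying tagged proteins to it, rose in 8 of 9 cases and fell in 1 of 9 in 5-FU+Saline against Control. Of all genes tested, 32.8% were called higher and 32.7% lower there. Rad23b, a shuttle for ubiquitinated proteins, stood at 195, 202 and 187 CPM in Control, 303, 307 and 309 CPM in 5-FU+Saline and 259, 266 and 249 CPM in 5-FU+FMT, and Uba1, the main ubiquitin-activating enzyme, had a log2 fold change of 0.49 ± 0.027 (adjusted p = 8.43e-28). Ufd1, a cofactor of the segregase Vcp, fell (-0.28 ± 0.061, adjusted p = 4.94e-05). With FMT, 6 of the 9 fell and 0 rose, and 0 were higher at an unadjusted p under 0.05 or in DESeq2 or limma-voom. Of all genes tested, 19.2% were called lower and 17.7% higher in 5-FU+FMT against 5-FU+Saline.

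No gene of the list on the transcription of proteasome genes rose with them. Nfe2l1, the factor that is known to raise proteasome subunits together, stood at 147, 142 and 129 CPM in Control, 135, 137 and 135 CPM in 5-FU+Saline and 138, 134 and 133 CPM in 5-FU+FMT. The groups overlapped, with a log2 fold change of -0.04 ± 0.04 (adjusted p = 0.431), and Ddi2 and Ngly1, which activate its protein, were not called either (-0.04 and 0.09). Under upper-quartile scaling Nfe2l1 and Ddi2 were called lower (-0.11 and -0.12, adjusted p = 0.0121 and 0.0104), and also under the stricter filter (adjusted p = 0.0381 and 0.0324). Its relative Nfe2l2 and the small Maf genes, which encode their DNA-binding partners, fell in 5-FU+Saline against Control: Nfe2l2 by 0.36, Mafg by 0.54, Mafk by 1.04 and Maff by 1.70. Maff stood at 122, 124 and 124 CPM in Control, 36.4, 40.5 and 36.8 CPM in 5-FU+Saline and 64.2, 65.3 and 71.1 CPM in 5-FU+FMT, with no overlap. Of the 7 genes, 4 were called lower and 0 higher in 5-FU+Saline against Control. Of all genes tested, 32.7% were called lower and 32.8% higher there. Among the 7, 0 were higher at an unadjusted p under 0.05 or in DESeq2 or limma-voom. RNA levels do not show the activity of these factors, which are controlled as proteins.

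**Figure D5:**
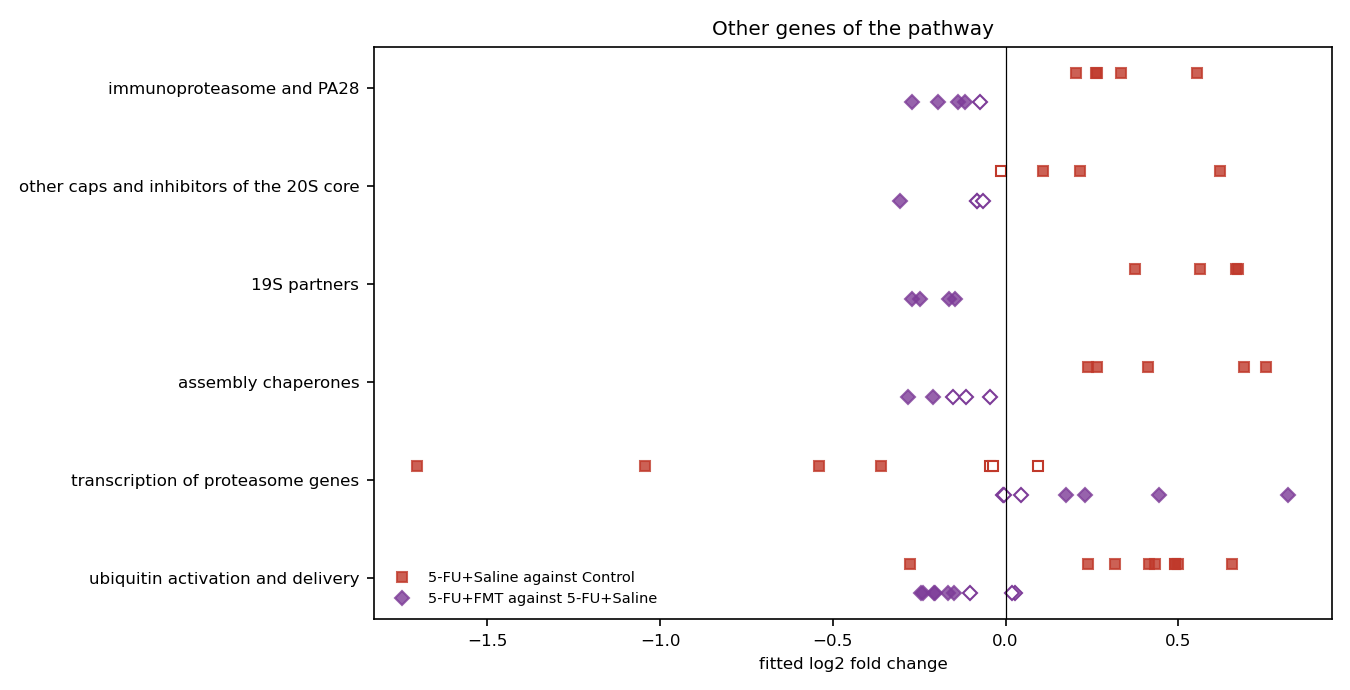
Fitted log2 fold change of the other genes of the pathway, one symbol per tested gene and a row per list: squares 5-FU+Saline against Control, diamonds 5-FU+FMT against 5-FU+Saline, filled where called. In the transcription list the 4 called genes lie left of 0 for the squares and right of 0 for the diamonds, with Maff farthest at -1.70 and 0.82, and the other 3 genes are open and near 0; in the other lists every filled diamond lies left of 0, and every filled square but that of Ufd1 lies right of 0.

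Markers of dividing cells, of the B lineage and of stroma moved in the direction of the proteasome genes. Markers of other cell types moved against them or in both directions. The part of any of these in the result was not tested. Beside the counts below, 32.8% of all genes tested were called higher and 32.7% lower in 5-FU+Saline against Control. In 5-FU+FMT against 5-FU+Saline, 17.7% were called higher and 19.2% lower. All 8 proliferation genes rose after 5-fluorouracil with saline and fell with FMT, with summed levels of 1139 to 1158 CPM in Control, 2794 to 2831 CPM in 5-FU+Saline and 2121 to 2199 CPM in 5-FU+FMT. All 9 B lineage genes did so too, at the sums given above. The 8 stroma genes also rose and fell in 8 of 8 cases, with 4.69 to 7.68 CPM in Control, 222 to 227 CPM in 5-FU+Saline and 50 to 54.8 CPM in 5-FU+FMT, and the collagen gene Col3a1 had no count in any Control library. In the opposite direction, 11 of 11 erythroid genes fell, with 1448 to 1473 CPM in Control, 598 to 609 CPM in 5-FU+Saline and 919.8 to 965 CPM in 5-FU+FMT.

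Plasma cell genes fell in 6 of 6 cases, with sums of 12560.0 to 12800.0, 7583 to 7788 and 8496 to 8806 CPM in the same order of groups, mostly from the immunoglobulin gene Igha. Of 9 neutrophil granule genes 4 rose and 4 fell, with sums of 2271 to 2308, 156 to 172 and 867 to 987 CPM. The genes that fell, Mpo, Elane, Prtn3 and Ctsg, made up most of the Control sum (1277, 396.5, 432 and 171 CPM on average). Those that rose, Ltf, Ngp, Camp and S100a9, averaged 0.2, 0.87, 1.08 and 2.84 CPM in Control. Of 5 T and NK cell genes 4 rose and 1 fell, with sums of 51.4 to 61.5, 39.4 to 41.9 and 44.2 to 50.6 CPM. The neutrophil granule list and the T and NK cell list each held genes called in both directions. Nkg7, the T and NK cell gene that fell, made up most of its list's sums (53.8, 30.5 and 39 CPM on average). Of 5 tested megakaryocyte genes 1 rose and 3 fell, with sums of 189 to 194, 282 to 287 and 236 to 243 CPM, and Gp1bb had no count in any library. Vwf was the megakaryocyte gene that rose, at 56, 175 and 118 CPM on average. Of the 5 genes of the sort gate 3 rose and 2 fell. Their sums, mostly from Kit, were 959 to 971, 673 to 686 and 769 to 793 CPM. Of 5 sex-linked genes Xist rose and 4 Y-linked genes fell, with sums of 359 to 373, 1280.0 to 1319 and 892 to 928 CPM. Xist made up most of the sums in 5-FU+Saline and 5-FU+FMT (1201 and 682 CPM on average) but only 0.87 CPM in Control.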

How the data were processed

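RNA was sequenced in pairs from 9 libraries, 3 in each of 3 groups taken from the sample labels. The deposited values are counts per gene, per the file headers. The tools named in the submitters' processing notes are Trim Galore 0.6.5 for trimming, HISAT2 2.2.1 for alignment, SAMtools, and featureCounts 2.0.1 for the counts, on the mouse build mm10. According to the headers, read pairs were counted over exons and summed by gene with GENCODE M25, with no option for strand or for reads that map to several places, so bases shared with another gene are uncertain; 8 members share some exon bases.

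Symbols came from a reference table that matched 55141 of 56262 gene IDs. Counts were filtered with filterByExpr (16595 genes left) and scaled by TMM. CPM use the scaled library sizes, summed over the genes left by the filter. All libraries entered a single edgeR 4.0.16 fit with the quasi-likelihood F test (R 4.3.3), and adjusted p-values are Benjamini-Hochberg over all genes tested in a comparison. The fit was tested on simulated data for 5-FU+Saline against Control, drawn for 16595 genes, where it called 34% of genes changed 1.2-fold, 59.6% of those changed 1.5-fold, 91.7% of those changed 2-fold and 0.031% of unchanged genes. The simulation changed only 200 genes, far fewer than were called in the data, and gave every gene the same spread. Its rates therefore do not describe single members. A gene that was not called may still have changed by a small fold. The common coefficient of variation between libraries in edgeR was 3.74%, which may be technical. Within groups the chi-square per degree of freedom between libraries was 2.15 to 2.57, so no library was a copy of another. These values do not show whether the libraries of a group came from separate mice. Promoter windows are from RefSeq (GRCm38.p6). Figures were drawn with matplotlib 3.10.9.

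Members and lists were chosen with earlier results of these data known. Named members were, per comparison, the 10 called with the largest fold change, every member not called or not tested, the catalytic subunits, and those highest and lowest per kb; other members are given by class. From each pathway list up to 2 genes per direction with the smallest p were named, and others named beyond these were chosen after their values were seen. A few genes of the ubiquitin pathway are not reported here, and counts over its list leave them out. Alternatives were other scaling (RLE, upper quartile, none), no filter or a stricter one (10 CPM in 3 libraries), DESeq2 1.42.0, limma-voom (limma 3.58.1), a fit of only the groups compared, a replicate block, and leaving out each of the 9 libraries.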

Additional observations from a re-analysis of the deposited data

How the results depend on the processing

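Each comparison was repeated under 18 alternatives. Of 1887 values of single members, 1883 kept their side of the threshold, 3 lost their call, 1 gained one and no called value reversed. The 4 that changed are given with Psma8, Psmd5 and Psmd10 above. Direction was not compared for values called in neither fit. Of 1836 values of other pathway genes, 1780 kept their side of the threshold, 45 lost a call and 11 gained one, in 13 genes. The median log2 fold change of the members in 5-FU+Saline against Control was 0.59, and it was 0.51 with upper-quartile scaling, 0.54 with the stricter filter (34 members tested) and 0.55 to 0.61 when each library was left out in turn. In 5-FU+FMT against Control the median was 0.34, and it was 0.27 with upper-quartile scaling and 0.38 with no filter. These scaling and filter settings moved the members together with all genes tested in both fits: the median shift was -0.077 for members and for all genes with upper-quartile scaling and -0.053 for both with the stricter filter in 5-FU+Saline against Control, and -0.065 and 0.043 for both with upper-quartile scaling and no filter in 5-FU+FMT against Control. Leaving out each library gave 34 members higher in 5-FU+Saline against Control, 30 lower in 5-FU+FMT against 5-FU+Saline, and 32 to 34 higher in 5-FU+FMT against Control. Libraries with the same replicate number did not deviate together (correlations of -0.02 to 0.02 over 9 pairs), so no pairing by number was seen. A pairing that left no shared deviation in RNA would not show in these correlations. With a replicate block, 34 members were higher in 5-FU+Saline against Control, 30 lower in 5-FU+FMT against 5-FU+Saline and 33 higher in 5-FU+FMT against Control, and the block changed no call of a member. With 3 libraries a group, the permutation tests of ratios could not fall under p = 0.1.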

Other observations

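Heat shock genes, several of which help proteins fold, moved apart from the proteasome genes and from each other. Of 6 such genes, 2 rose and 4 fell in 5-FU+Saline against Control, and 4 rose and 2 fell in 5-FU+FMT against 5-FU+Saline. Of all genes tested, 32.8% were called higher and 32.7% lower in the former, and 17.7% higher and 19.2% lower in the latter. Hspa1b, an inducible member of the HSP70 family, stood at 301, 308 and 303 CPM in Control, 2.05, 1.72 and 2.38 CPM in 5-FU+Saline and 94.8, 99.4 and 106 CPM in 5-FU+FMT, and its near-identical copy Hspa1a at 126, 125 and 127 CPM in Control, 1.06, 0.891 and 0.929 CPM with saline and 40.8, 42 and 47 CPM with FMT. The copies share sequence, so the split of reads between them is uncertain. Dnajb1, a partner of HSP70, averaged 288 ± 7.06 CPM in Control, 97.5 ± 3.26 CPM with saline and 161 ± 4.99 CPM with FMT after 5-fluorouracil (SD, n = 3), without overlap between groups. The constitutive chaperone Hspa8 rose by 0.13 on the log2 scale in 5-FU+Saline against Control (edgeR, SE 0.021, adjusted p = 1.06e-07), and Hsp90aa1 by 0.34 (adjusted p = 2.66e-22). These genes were named after their values were seen.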
